A study of Mus musculus with 6 samples.

Results

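Messenger RNAs of 35 genes of cytosolic protein synthesis were measured in whole mouse pancreas by bulk RNA-seq. The set was a fixed list of gene symbols: 20 aminoacyl-tRNA synthetases, 9 translation initiation factors and 6 elongation factors, all 35 of which were found among 35527 genes with a measured transcript and all of which passed the filter on low counts that left 15805 genes. The 6 libraries came from C57BL/6 mice at 1 day of age, 3 of them wild type (WT) and 3 miR-216a-/- (called KO below). The labels name a separate donor mouse for every library, state no sex, litter or batch, and do not say how the null allele was made. No agent was given to either group, and the null allele is the stated difference between them. The comparison asks how the absence of miR-216a, a microRNA known for its abundance in pancreas, is reflected in these transcripts just after birth. The microRNA itself was not measured here, so the genotype rests on the labels.

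Aminoacyl-tRNA synthetases attach each amino acid to its matching tRNA, and every codon read by the ribosome draws on that supply. Initiation factors bring the small ribosomal subunit and the initiator tRNA to the cap of an mRNA and to its start codon. Elongation factors then deliver charged tRNAs and move the ribosome along. The acinar cell, which makes up most of the exocrine pancreas, is known for a very high rate of synthesis of secreted digestive enzymes.

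Depth ran from 20565387 to 23028718 estimated reads per library, and a member received between 465 and 116219 of them. In CPM (counts scaled to library size by TMM), acinar markers summed to 175000 to 277000, and no listed marker of any of 10 cell type or cycle lists was at 0 in a library. Erythroid markers were high in WT 1 (a sum of 5861 CPM) and KO 2 (4607) and lower elsewhere (1691 to 2801), and liver markers were high in WT 1 (540.7, elsewhere 150.7 to 205.5). The 12 S phase genes summed to 723.9 to 798.0 CPM in WT and 259.8 to 505.7 in KO, and the 12 G2 and M phase genes to 715.2 to 916.1 and 193.9 to 569.3. Endocrine markers summed to 6724 to 8629 CPM in WT and 5886 to 6482 in KO. Among them Ins1, Ins2 and Sst had log2 ratios of KO over WT of -0.40, -0.46 and -0.46. Of the 8 endocrine markers, however, 4 were higher in KO and 4 lower, with a median log2 ratio of 0.014. The cycle and endocrine sums separated the groups, while the erythroid, liver and acinar sums did not, and their part in the values of the members was not tested.

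Per length of transcript the classes formed a ladder. In TPM (counts scaled to transcript length and library size, the authors' deposited values summed per gene, mean of 6 libraries), synthetases ran from 19.6 for Farsb to 69.3 for Sars, with a median of 33.5. Initiation factors ran from 27.6 for Eif2s1, a subunit of the factor that carries the initiator tRNA, to 282.4 for Eif4a1, an RNA helicase that unwinds mRNA leaders, with a median of 78.9. Elongation factors ran from 184.6 for Eef1d to 3563 for Eef1a1, the GTPase that brings charged tRNA to the ribosome, with a median of 550.9. Every elongation factor thus stood above every synthetase, and Eif4a1 was the only initiation factor above the lowest elongation factor.

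**Figure D1:**
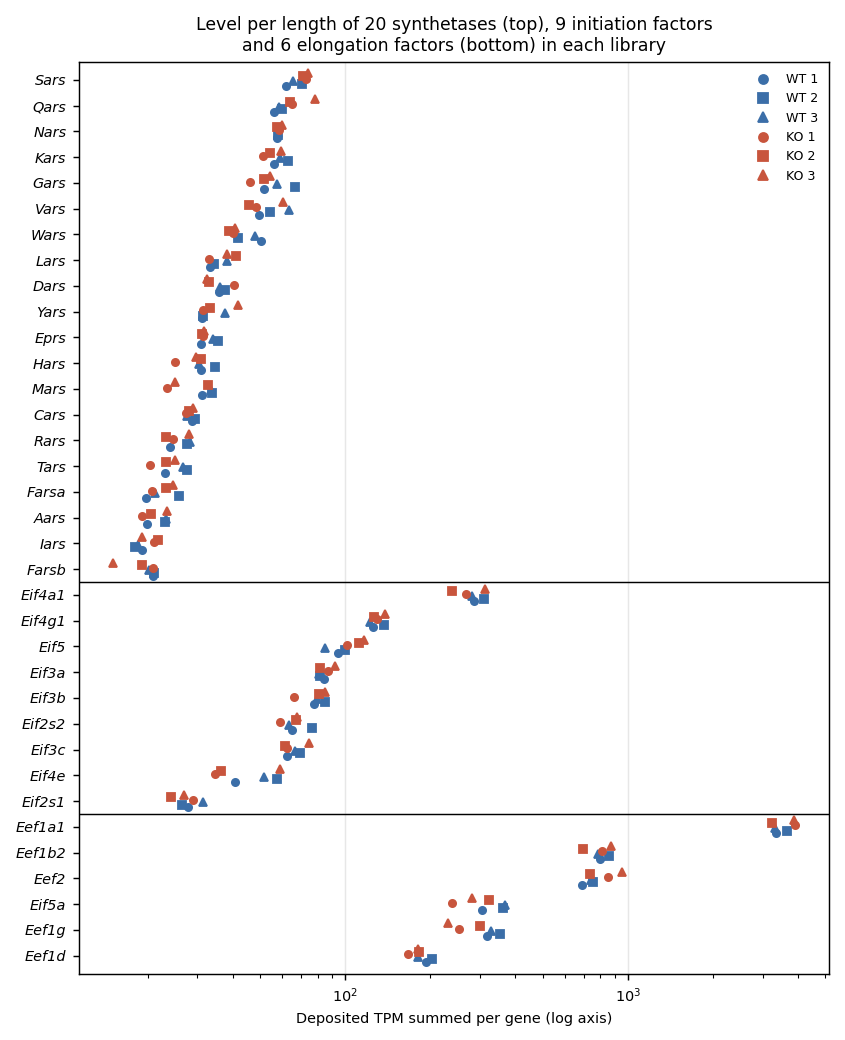
Deposited TPM summed per gene (horizontal log axis) of the 35 genes, in 3 classes from top to bottom, with 1 point per library (blue WT, red KO). The elongation factors, from 184.6 to 3563 TPM on average, lie to the right of all synthetases, which end at 69.3.

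Neighbours within a class often did not separate. Farsb at 20.8 ± 0.429 TPM in WT and 18.4 ± 2.99 in KO and Iars at 18.6 ± 0.571 and 20.6 ± 1.37 (SD, n = 3) had the same 6-library mean of 19.6, and Sars at 66.1 ± 4.36 in WT lay within 2 SD of Qars at 58.0 ± 1.78. Farsa and Farsb, the catalytic and the tRNA-binding subunit of phenylalanyl-tRNA synthetase, stood at 22.6 and 19.6 TPM. In the nucleotide exchange complex that recharges Eef1a1 the levels were unequal, at 803.8 TPM for Eef1b2, 297.0 for Eef1g and 184.6 for Eef1d. Of the Eef1b2 reads, 42.1% were given to a transcript annotated for nonsense-mediated decay, so its TPM is not that of coding transcripts alone. Eef1a1, Eef1b2 and Eif5a have processed copies or a close paralog elsewhere in the genome. Salmon divides reads that are shared with such copies, which makes these levels less certain. By how much was not measured.

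Across the 3 KO and 3 WT libraries no member passed the test. The test was edgeR's quasi-likelihood test on TMM-scaled counts with Benjamini-Hochberg adjustment over all 15805 genes, and a gene was called at an adjusted p under 0.05. It called 0.0% of all genes, with a smallest adjusted p of 0.205, so the 0 called of 35 members stands beside 0 in the whole table. DESeq2 called 0 of the 35 against 2.82% of the genes to which it gave an adjusted p, and limma-voom 0 of the 35 against 0.0127%. At an unadjusted p under 0.05 edgeR found 1996 genes, 7.0% of all genes lower in KO and 5.62% higher. The members gave 1 lower, Eef1g, and 0 higher. Adjusted p of the members by edgeR ran from 0.370 to 0.986. The 95% limits of the log2 fold changes reached from -0.755 for Eef1g to 0.464 for Eef2, which are -40.8% and 37.9%, so changes beyond those sizes lay outside every member's interval. In a bulk tissue, fewer cells of a type and less RNA per cell cannot be told apart.

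Most members nevertheless had a fold change slightly below 0. The log2 fold change (KO over WT, CPM scale) was below 0 for 27 of 35 members, against 48.8% of all genes tested, and its median was -0.082 against 0.007 over all genes. Synthetases and factors did not part from each other. For 16 of 20 synthetases the value was below 0, with a median of -0.085 and a range of -0.281 (Aars) to 0.121 (Qars). For 11 of 15 factors it was below 0, with a median of -0.067, made of 7 of 9 initiation factors (median -0.067) and 4 of 6 elongation factors (median -0.108). The medians of synthetases and factors differed by -0.018, and that difference ran from -0.042 to 0.045 when single libraries were left out. For 3 members, Vars, Eif2s1 and Eif4e, the highest KO library was under the lowest WT library, against 10.3% of all genes, and the reverse held for 0, against 9.07%. A share of 3 in 35 is near that background.

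**Figure D2:**
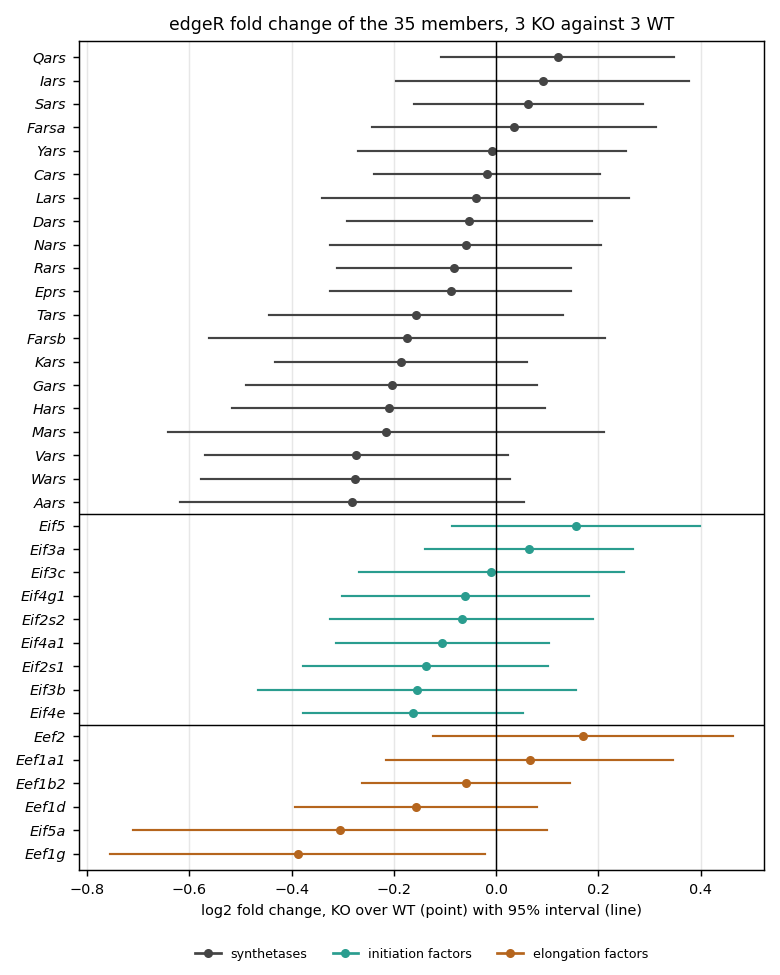
Log2 fold change from edgeR, KO over WT (point), with its 95% interval (line), for the 35 genes by class. Of the 35 intervals only that of Eef1g, which ends at -0.021, leaves out 0.

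The small negative medians were carried by a few libraries. Relative to the WT mean on the log2 scale, the median synthetase stood at -0.06, -0.085 and 0.146 in WT 1, 2 and 3 and at -0.172, 0.037 and -0.152 in KO 1, 2 and 3. The median factor followed the same libraries, at -0.076, -0.054 and 0.109 in WT and -0.177, 0.019 and -0.052 in KO. WT 3 was the highest library for 13 of 20 synthetases, 6 of 9 initiation factors and 4 of 6 elongation factors. KO 1 was the lowest for 11, 6 and 3 of them. KO 2 lay above WT 1 and WT 2 in both medians, so the groups overlapped. Over all genes tested the median on the same log2 scale was -0.002 in WT 3 and 0.007 in KO 2. WT 3 and KO 2 had the lowest TMM factors, 0.9377 and 0.9204, against 1.012 to 1.09 in the rest, and a low factor raises CPM. The part of this scaling in the order of the libraries was not tested. Without WT 3 the synthetase median was -0.005, the factor median -0.031, and 11 synthetases and 9 factors remained below 0, while 28 of the 35 members kept their sign.

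**Figure D3:**
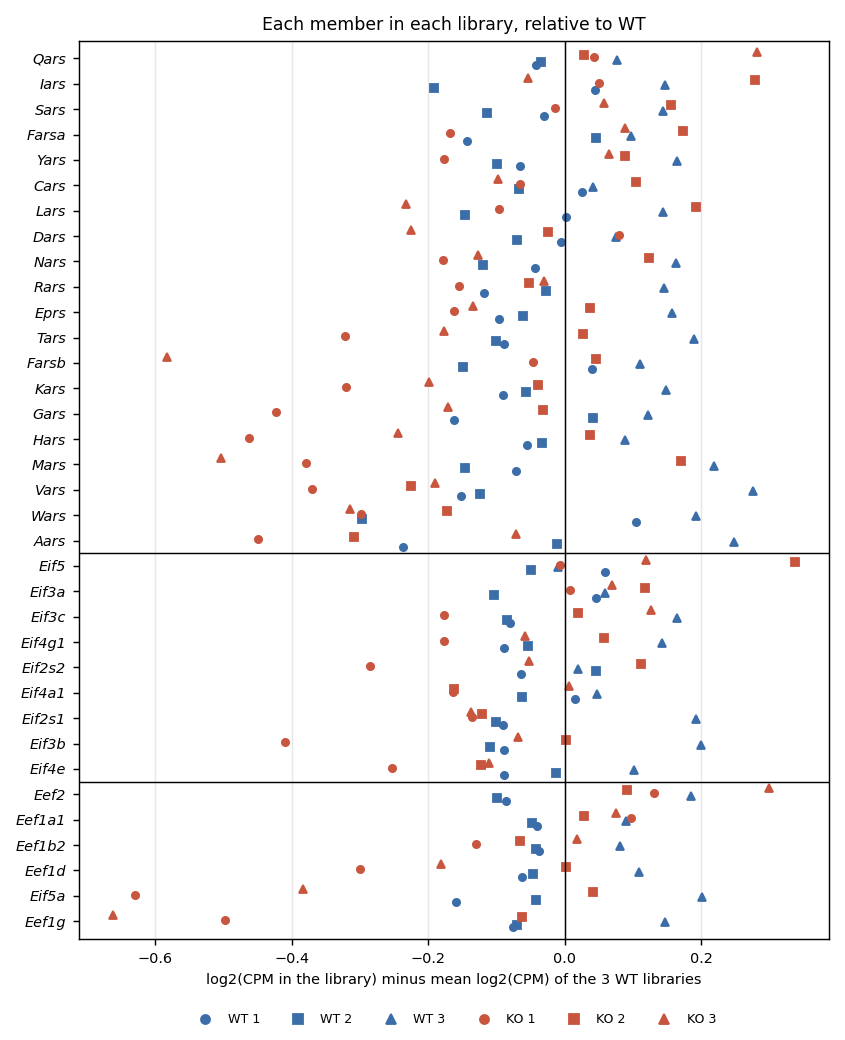
Log2 CPM of each of the 35 genes in each library minus the mean log2 CPM of the 3 WT libraries (horizontal axis), with WT in blue and KO in red. The WT 3 triangles lie to the right for most genes and the KO 1 circles to the left, while KO 2 squares mix with WT.

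As a percentage of the TMM-scaled library size, the 20 synthetases together took 0.138, 0.136 and 0.161% in WT 1, 2 and 3. In KO 1, 2 and 3 they took 0.125, 0.146 and 0.132%. The means were 0.145% ± 0.0142 and 0.134% ± 0.0107 (SD, n = 3 each), and an exact two-sided permutation test gave p = 0.4. The 15 factors took 0.923, 0.917 and 1.04% in WT and 0.959, 0.981 and 0.999% in KO, with means of 0.959% ± 0.0668 and 0.980% ± 0.0201 and an exact permutation p = 0.7. With 3 libraries against 3 the smallest p this test can give is 0.1. The TMM factors ran from 0.9204 in KO 2 to 1.09 in WT 2, so these percentages are not shares of the unscaled counts. Shares of the unscaled counts were not compared. The factor percentage was higher in KO on average while the factor median was below 0. Eef1a1 and Eef2, the largest contributors by CPM, had log2 fold changes above 0.

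Among the synthetases the lowest unadjusted p belonged to Vars, which charges tRNA with valine (chr17:35000987-35016322, GRCm38). Its CPM was 104.3, 106.4 and 140.4 in WT 1, 2 and 3 and 89.7, 99.2 and 101.6 in KO 1, 2 and 3. All KO libraries were below all WT libraries, although KO 3 and WT 1 lay close together and WT 3 stood well above the rest. The log2 fold change was -0.27 ± 0.13 (SE), with an edgeR adjusted p = 0.441. It was -0.116 without WT 3, -0.157 with transcript length offsets and -0.137 in the authors' scaled table.

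Wars, the tryptophanyl enzyme, had a CPM of 108.1, 81.9 and 114.9 in WT and 81.8, 89.2 and 80.9 in KO. WT 2 fell among the KO libraries, so the groups overlapped, and the log2 fold change was -0.28 ± 0.13 with an edgeR adjusted p = 0.446, and -0.173 without WT 3. Aars, the alanyl enzyme, had 73.6, 86.1 and 103.0 CPM in WT and 63.5, 70.0 and 82.5 in KO. Only KO 3 passed a WT library, WT 1, and the log2 fold change was -0.28 ± 0.15 (edgeR adjusted p = 0.482). It was -0.143 without WT 3, -0.108 with transcript length offsets and -0.1 in the authors' scaled table. Kars, the lysyl enzyme, had 84.4, 86.4 and 99.5 CPM in WT and 72.0, 87.5 and 78.3 in KO. Gars, the glycyl enzyme, had 100.8, 116.0 and 122.8 CPM in WT and 84.1, 110.4 and 100.2 in KO. In both, KO 2 reached into the WT range, and the log2 fold changes were -0.19 ± 0.11 and -0.20 ± 0.12, with edgeR adjusted p = 0.525 and 0.548. Kars was at -0.102 without WT 3 and -0.121 without KO 1, and Gars at -0.105 without KO 1.

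Sars and Qars went the other way in value. Sars, the seryl enzyme and the most abundant synthetase per length, had 95.2, 89.9 and 107.5 CPM in WT and 96.2, 108.2 and 101.1 in KO, with a log2 fold change of 0.06 ± 0.10 that ran from 0.007 to 0.144 with single libraries left out. Qars, the glutaminyl enzyme, had 63.5, 63.9 and 69.0 CPM in WT and 67.4, 66.7 and 79.5 in KO. Its log2 fold change of 0.12 ± 0.10 had an edgeR adjusted p = 0.667, and was 0.035 without KO 3 and 0.217 with transcript length offsets.

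The other 13 synthetases lay between. Mars (methionine), Hars (histidine), Farsb and Tars (threonine) had log2 fold changes of -0.22, -0.21, -0.17 and -0.16, and Eprs (glutamate and proline), Rars (arginine), Nars (asparagine), Dars (aspartate), Lars (leucine), Cars (cysteine) and Yars (tyrosine) of -0.09, -0.08, -0.06, -0.05, -0.04, -0.02 and -0.01. Farsa at 0.04 and Iars (isoleucine) at 0.09 were above 0. Farsb stood out for 1 library, with 19.9 CPM in KO 3 and at least 26.9 CPM in each of the rest. Mars had 43.7 and 40.1 CPM in KO 1 and KO 3 but 63.9 in KO 2, against 51.3 to 66.1 in WT.

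Known groupings of the enzymes did not separate clearly. The 8 synthetases that belong to the multisynthetase complex had a median log2 fold change of -0.067, with 6 below 0, and the 12 outside it of -0.165, with 10 below 0. The 9 class I enzymes had a median of -0.04, with 7 below 0, and the 10 class II enzymes of -0.165, with 8 below 0. Eprs joins a domain of either class and was left out of that split. No test of these splits was made.

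Promoters of the synthetases are known for amino acid response elements, where ATF4 can bind, and the sequences are shown because they give a shared feature of the class that the list did not use. RefSeq promoters (GRCm38.p6, 250 bases before to 50 after the start of a gene) were at hand for 26 members, 13 synthetases and 13 factors. The core TGATGNAA, searched on both strands, was in 5 of 13 synthetase promoters, 0 of 13 factor promoters and 4.51% of 27025 promoters of all genes. The 5 were Aars, Gars, Iars, Tars and Yars, in 30-base windows on the strand of the gene with the core in capitals. Where the core lies on the other strand the capitals read as its reverse complement, which is so in all but Yars.
Aars (chr8:111033840-111033869, plus strand): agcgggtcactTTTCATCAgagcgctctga
Gars (chr6:55037960-55037989, plus strand): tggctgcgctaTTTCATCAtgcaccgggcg
Iars (chr13:49682126-49682155, plus strand): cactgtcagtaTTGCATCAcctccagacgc
Tars (chr15:11399655-11399684, minus strand): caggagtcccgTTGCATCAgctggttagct
Yars (chr4:129189895-129189924, plus strand): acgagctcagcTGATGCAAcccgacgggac
The median log2 fold change of the 5 was -0.157 and that of the 8 searched synthetases without the core -0.070. Among the 5 the values ran from -0.28 for Aars to 0.09 for Iars, so enzymes that share the core lay at both ends of the class. A match is a description of letters and does not show binding.

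The E-box CACGTG, the core bound by MYC and related factors, was in 4 of 13 synthetase and 6 of 13 factor promoters against 8.09% of all promoters, and CCAAT in 7 and 4 of 13 against 41.1%. CACGTG reads the same on both strands. It is shown for the promoters of Eef2, Eif4e and Eif4g1, where it lies shortly before the start.
Eef2 (chr10:81176576-81176605, plus strand): acccggcgccgtCACGTGacgcacccaacc
Eif4e (chr3:138527192-138527221, plus strand): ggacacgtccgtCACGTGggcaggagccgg
Eif4g1 (chr16:20672661-20672690, plus strand): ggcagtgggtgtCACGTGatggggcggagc
The 10 members with CACGTG had a median log2 fold change of -0.131 and the 16 without it of -0.056. Eef2 at 0.17 and Eif4e at -0.16 both hold it.

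Among the initiation factors, those with the lowest p were small in effect. Eif4e, the protein that binds the mRNA cap (chr3:138526179-138559696, GRCm38), had 42.7, 45.1 and 48.8 CPM in WT 1, 2 and 3 and 38.2, 41.8 and 42.1 in KO 1, 2 and 3. The groups did not overlap, but KO 3 and WT 1 differed by less than the spread within either group. The log2 fold change was -0.16 ± 0.09 and the edgeR adjusted p was 0.524, and it was -0.105 without WT 3 and -0.259 in the authors' scaled table. Eif2s1, whose protein is the phosphorylated subunit of eIF2 (chr12:78861819-78887010), had 42.7, 42.4 and 52.0 CPM in WT and 41.4, 41.8 and 41.4 in KO. Here the KO libraries lay just under WT 1 and WT 2, and WT 3 alone made most of the log2 fold change of -0.14 ± 0.10, which was -0.03 without WT 3. Eif5, which activates GTP hydrolysis by eIF2 at the start codon, had 207.9, 192.7 and 198.2 CPM in WT and 198.5, 252.1 and 216.6 in KO. Its log2 fold change was 0.16 ± 0.11, with KO 2 above all others and KO 1 inside the WT range, and it was 0.054 without KO 2.

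Eif4a1, the most abundant initiation factor per length, had 378.4, 358.6 and 387.1 CPM in WT and 334.3, 334.8 and 376.2 in KO. KO 3 overlapped WT, and the log2 fold change was -0.11 ± 0.09, or -0.163 without KO 3. The scaffold Eif4g1, which joins Eif4e and Eif4a1 at the cap, had a log2 fold change of -0.06 and the eIF2 subunit Eif2s2 of -0.07. Of the eIF3 subunits, which help recruit the small ribosomal subunit, Eif3b had -0.16, Eif3c -0.01 and Eif3a 0.06. KO 1 was the low library for Eif3b, at 122.1 CPM, and the rest lay between 150.3 and 186.3.

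With all 6 libraries, elongation factors held both the lowest and the highest log2 fold change of all members. Eef1g, a structural subunit of the exchange complex for Eef1a1 (chr19:8967041-8978479, GRCm38), had 441.5, 443.2 and 515.3 CPM in WT 1, 2 and 3 and 329.6, 445.8 and 294.3 in KO 1, 2 and 3. KO 1 and KO 3 were well below WT, while KO 2 lay between WT 2 and WT 3. The mean was 466.7 ± 42.1 CPM in WT and 356.6 ± 79.2 in KO (SD, n = 3). The log2 fold change was -0.39 ± 0.16, with an unadjusted p = 0.0405 and an adjusted p = 0.370 by edgeR. It was -0.58 without KO 2 and -0.27 without KO 3.

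Eif5a, named as an initiation factor but known to help ribosomes past difficult peptide bonds and so counted with elongation, had 278.6, 302.4 and 357.8 CPM in WT and 201.1, 320.2 and 238.6 in KO. The libraries split as for Eef1g, with KO 1 and KO 3 below WT and KO 2 inside it, and the log2 fold change was -0.31 ± 0.18 (edgeR adjusted p = 0.525). It was -0.164 without KO 1, -0.191 without WT 3 and -0.512 without KO 2. Eef2, the translocase that moves the ribosome by a codon, had 1660, 1645 and 2004 CPM in WT and 1930, 1878 and 2168 in KO. WT 3 lay among the KO libraries, and the log2 fold change was 0.17 ± 0.13, or 0.274 without WT 3 and 0.106 without KO 3. Eef1a1 had 4586, 4566 and 5019 CPM in WT and 5047, 4813 and 4970 in KO, with overlapping groups and a log2 fold change of 0.07 ± 0.12, or 0.041 without WT 2 and 0.117 without WT 3. The other exchange subunits, Eef1d and Eef1b2, had log2 fold changes of -0.16 and -0.06.

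Because partner subunits act together, their TPM ratios were compared within each library, a measure chosen after the values were seen. Of 12 pairs, 2 did not overlap between groups, and both contain Eef1g, the member with the lowest unadjusted p. Several pairs share a gene, so they are not independent. No share over other gene pairs was computed to set beside this count. For single genes the shares without overlap were 10.3% lower in KO and 9.07% higher. The ratio of Eef1a1 to Eef1g was 10.6, 10.4 and 10.1 in WT 1, 2 and 3 and 15.5, 10.8 and 16.8 in KO 1, 2 and 3. The ratio of Eef1g to Eef1d was 1.65, 1.73 and 1.81 in WT and 1.52, 1.65 and 1.27 in KO. Its separation rests on 1.648 in WT 1 against 1.647 in KO 2. KO 2 was close to WT in both ratios. Each gave an exact two-sided permutation p = 0.1, the smallest this design allows, and 0.6 after Benjamini-Hochberg adjustment over the 12 pairs. For the other 10 pairs, among them Farsa to Farsb at 1.07 ± 0.141 in WT and 1.28 ± 0.324 in KO and Eif4g1 to Eif4e at 2.62 ± 0.401 and 3.19 ± 0.740, the groups overlapped.

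The share of each gene's reads given to each of its transcripts was also compared. Salmon divides reads that several transcripts share, so these shares are estimates. Of 75 member transcripts with a mean share of at least 5% of the reads of their gene, 4 had every KO library above every WT library and 7 below, against 10.8% of 31715 transcripts of all genes in either direction. The main transcript Vars-201 took 86.3, 81.8 and 80.9% of Vars reads in WT and 75.8, 73.3 and 75.2% in KO, while another coding transcript, Vars-210, took 0.00, 3.71 and 3.22% in WT and 5.73, 12.8 and 8.15% in KO. Farsa-205, annotated as a retained intron, took 16.9, 16.9 and 15.8% in WT and 20.1, 21.1 and 25.0% in KO. Kars-203, a minor coding transcript, took 1.39, 4.36 and 2.58% in WT and 9.56, 6.64 and 6.69% in KO. Lars-210, a retained intron, was the fourth that was higher, at 7.69% ± 0.860 in WT and 11.2% ± 2.13 in KO (SD, n = 3). Of those lower in KO besides Vars-201, Lars-209, annotated for nonsense-mediated decay, went from 17.9% ± 2.69 to 11.8% ± 2.48, Qars-203 from 14.7% ± 1.25 to 12.4% ± 0.867 and Cars-211 from 11% ± 0.762 to 8.65% ± 2.29. The rest were the main transcripts Aars-201 (97.2% and 95.1%), Hars-201 (98.8% and 98.1%) and Eif3b-201 (97.5% and 96.8%), whose shares differed by little. The count of 11 in 75 is not far from the background, and no test of these shares was made. In 2 members the transcript with the largest share was not annotated as protein coding. In Qars it was Qars-231, annotated as a target of nonsense-mediated decay, with 54.5% ± 6.05 in WT and 52.4% ± 4.20 in KO. In Eef1b2 it was Eef1b2-205, with the same annotation, at 41.5% ± 2.28 in WT and 42.6% ± 1.36 in KO.

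MicroRNAs act mainly by pairing of their seed with sites in the 3′ untranslated region of an mRNA, so the members were searched for matches to miR-216a-5p. Its mature sequence (RefSeq, GRCm38.p6, chr11:28757018-28757039, plus strand) is shown with the seed, bases 2 to 8, in capitals.
miR-216a-5p: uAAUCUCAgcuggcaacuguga
Matches were searched on the strand of the gene as 8 bases, TGAGATTA, or as the first or last 7 of these. Only the longest annotated 3′ untranslated region of each gene was searched, with transcripts annotated for nonsense-mediated decay included. Of 35 members, 7 (20.0%) had a match there, against 18.1% of 15120 genes tested, with 4 of 20 synthetases and 3 of 15 factors. In 4 of them the transcript with the match carried a large share of the gene's reads, 98.5% in Dars, 64.6% in Eif4e, 53.5% in Qars and 38.9% in Eif5. In Qars that transcript was Qars-231, annotated for nonsense-mediated decay, with 2071 of its 2398 bases counted as 3′ untranslated. Their sites are shown with the match in capitals, in GRCm38.
Dars (chr1:128363717-128363742, minus strand): tcctgaggcTGAGATTcaataaaaac
Eif4e (chr3:138557500-138557525, plus strand): tatctattaGAGATTAattctcatat
Qars (chr9:108514841-108514866, plus strand): tttggtgtgTGAGATTcgcctctatg
Eif5 (chr12:111546300-111546325, plus strand): atcatttttTGAGATTctcaagtaca
Qars and Eif5 had log2 fold changes of 0.12 and 0.16, whereas Dars at -0.05 and Eif4e at -0.16 were below 0. In Wars, Eef1d and Nars each matching transcript held at most 0.9% of the reads. No common direction was seen among the genes with a site, and a match does not show that a site is used.

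The other genes of translation, 89 in 9 lists that hold no member, gave the wider setting. By edgeR 0 of 89 were called, by limma-voom 0 and by DESeq2 1, Eif2ak3, against its 2.82% of all genes. At an unadjusted p under 0.05, 5 were higher, against 5.62% of all genes, and 3 lower, against 7.0%, while 41 had a log2 fold change below 0, and the median was 0.008, close to the 0.007 of all genes. Every KO library was above every WT library for 7 of the 89, against 9.07% of all genes, and below for 5, against 10.3%.

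The genes that control eIF2 had log2 fold changes mostly above 0. Of the 6 kinases and phosphatase subunits, 5 were above 0, against 51.2% of all genes, with a median of 0.182, and 2 were higher at an unadjusted p under 0.05, against 5.62%. A list of 6 genes is small for such shares. Eif2ak3, the endoplasmic reticulum stress kinase PERK that phosphorylates the protein of Eif2s1, had 73.5, 49.9 and 63.1 CPM in WT 1, 2 and 3 and 91.3, 92.7 and 91.2 in KO 1, 2 and 3. All KO libraries were above all WT libraries, and they differed from each other far less than the WT libraries did. The log2 fold change was 0.56 ± 0.14, with an unadjusted p = 0.00331 and an adjusted p = 0.215 by edgeR. DESeq2 gave it an adjusted p = 0.0156, whereas its other settings ran from 0.13 to 0.669. Eif2ak4, the amino acid sensing kinase GCN2, had 22.2, 21.4 and 22.7 CPM in WT and 27.6, 24.7 and 28.7 in KO, again without overlap, with a log2 fold change of 0.29 ± 0.10 and an edgeR adjusted p = 0.297.

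Pdcd4, an inhibitor of the helicase Eif4a1, had 105.9, 79.4 and 90.1 CPM in WT and 110.7, 122.8 and 140.6 in KO. The groups did not overlap, and the log2 fold change was 0.44 ± 0.13 (edgeR adjusted p = 0.258). All 7 genes in its list of eIF4E binding proteins and regulators were above 0, against 51.2% of all genes, with a median of 0.101. The values started at 0.009 for Eif4ebp1, and 7 genes are few for such a share. Only Pdcd4 had an unadjusted p under 0.05 by edgeR, and the second by p was Eif4ebp3 at 0.33 ± 0.21. Of the 29 other initiation factors, Eif3e (111.4, 110.9 and 114.8 CPM in WT, 134.0, 120.0 and 140.3 in KO) and Eif4a2 (234.6, 221.2 and 225.4 in WT, 268.1, 306.7 and 241.6 in KO) had the lowest p. Their log2 fold changes were 0.23 ± 0.09 and 0.26 ± 0.11, with edgeR adjusted p = 0.337 and 0.359. The list itself had a median of 0.008, with 13 below 0. Of the 5 eIF2B subunits, which recharge eIF2 with GTP, 1 was below 0, Eif2b5 at -0.15, and the next by p was Eif2b3 at 0.11.

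**Figure D4:**
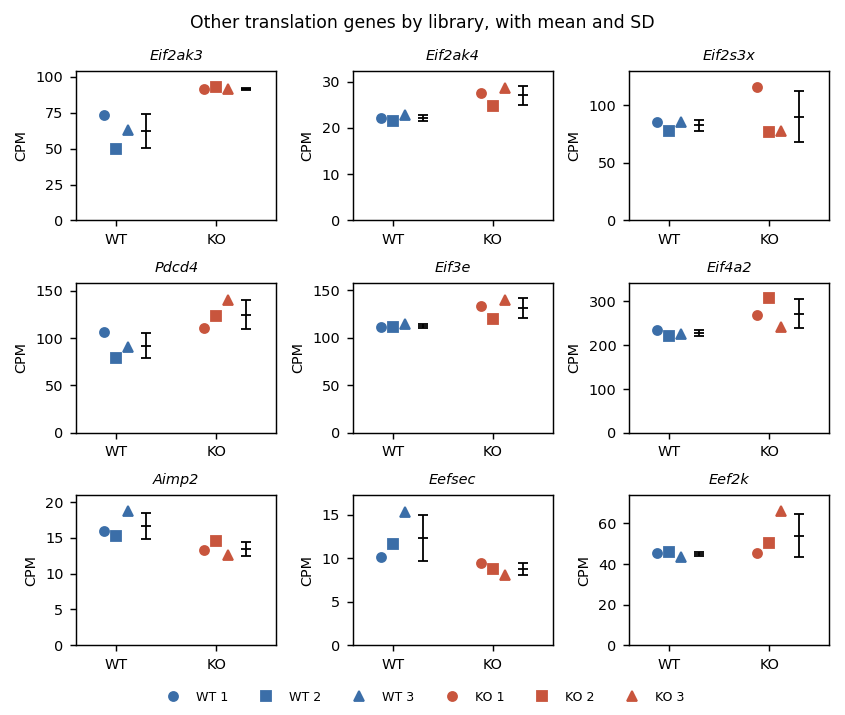
CPM (vertical axis, from 0) of 9 other translation genes in each library, with the mean and SD of each group at the right of its points. The KO points of Eif2ak3, at 91.2 to 92.7, lie above all WT points, which reach 73.5.

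Partners of the synthetases had mixed values. Aimp2, a scaffold of the multisynthetase complex, had 15.9, 15.3 and 18.8 CPM in WT and 13.3, 14.5 and 12.6 in KO, with a log2 fold change of -0.30 ± 0.13 and an edgeR adjusted p = 0.381. The other scaffolds were near 0, at -0.01 for Eef1e1. Over the 17 mitochondrial synthetases the median was 0.035 with 7 below 0, and Lars2, the mitochondrial leucyl enzyme, was at 0.28 ± 0.14.

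Of the 9 other elongation factors and their enzymes 6 were below 0, with a median of -0.12. Eefsec, which delivers selenocysteine, had 10.1, 11.7 and 15.3 CPM in WT and 9.52, 8.74 and 8.08 in KO, with a log2 fold change of -0.50 ± 0.18 and an edgeR adjusted p = 0.314, and the Eef2 kinase Eef2k was at 0.26 ± 0.14. Termination and recycling factors had a median of -0.061, with Abce1 at -0.14 and Mrrf at 0.14. Mitochondrial translation factors had a median of -0.018, with Gfm1 at -0.23 and Tsfm at -0.21.

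The X-linked and Y-linked copies of the eIF2 gamma subunit set KO 1 apart from the other KO libraries and from all WT libraries. The compared groups were therefore not balanced for this difference, and the fit held no covariate for it. Eif2s3y was at 0 in KO 1, where a count of 0 allows up to 0.141 CPM (3 counts, counting error only), and at 43.3 to 60.6 CPM in the other libraries. Eif2s3x was 115.8 CPM in KO 1 and 76.5 to 85.7 elsewhere. KO 1 was also the lowest library for many members, and the part of this sex-linked difference in those values was not tested. Without KO 1 the median log2 fold change was -0.065 for synthetases and -0.025 for factors. In that run edgeR called 87 genes higher and 275 lower in KO, with 0 members among them, whereas all 6 libraries gave 0 and 0.

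The amino acid response, which raises synthetase genes through ATF4, was followed in 15 genes. Their median log2 fold change was 0.065, with 6 below 0 and 0 called by edgeR, DESeq2 or limma-voom. At an unadjusted p under 0.05 by edgeR, 1 was higher (Chac1) and 1 lower (Psat1), against 5.62 and 7.0% of all genes. Atf4 had 111.7, 111.9 and 128.9 CPM in WT and 98.0, 121.0 and 131.1 in KO, with a log2 fold change of -0.01 ± 0.12. Chac1, which degrades glutathione, had 3.93, 1.64 and 2.52 CPM in WT and 3.67, 7.98 and 6.54 in KO (log2 fold change 1.17 ± 0.38, edgeR adjusted p = 0.275). Psat1, an enzyme of serine synthesis, had 62.1, 70.0 and 83.8 CPM in WT and 41.9, 64.1 and 36.8 in KO (log2 fold change -0.60 ± 0.21, edgeR adjusted p = 0.302). Both are known targets of this response, and their values went opposite ways.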

How the data were processed

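Messenger RNA of 6 whole pancreata was sequenced with a stranded mRNA kit, per the labels' protocols. Per the submitters' processing notes, bcl2fastq, Salmon 0.13.1, DESeq2 1.24.0 and mm10 were used. The authors deposited Salmon's expected counts and TPM for 116248 transcripts, with effective lengths (used in 1 alternative). They also deposited a scaled signal for 17324 genes, of which 0.566 to 0.791% of values were whole (a remainder under 1e-09), so it was not treated as counts. Which transcript set Salmon was given, the sources used here do not say. By identifier, 115995 transcripts matched GENCODE M21 (GRCm38), all with equal length, and the rest held 0.0341 to 0.0458% of reads and were left out.

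Expected counts were summed to genes and rounded (Python 3.11.15, pandas 2.3.3). The test was edgeR 4.0.16 (R 4.3.3), glmQLFit and glmQLFTest, with TMM scaling, filterByExpr, Benjamini-Hochberg adjustment over 15805 genes and no covariates. The biological coefficient of variation was 18.4%. Standard errors are the log2 fold change over the square root of F. Scripts were tested on simulated data.

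Values in every library are given for the 5 synthetases, 3 initiation and 2 elongation factors of lowest p, the most abundant member of each class and its highest and lowest log2 fold change. Of other lists the 2 genes of lowest p are given, and Eif2s3x, Eif2s3y, Eif2ak3 and Atf4 always. For 1 gene under this rule and 1 promoter window, the values are not reported here. Members and lists were chosen with earlier results of these data known. Alternatives were other scalings and filters, leaving out 49 digestive enzyme genes, DESeq2 1.42.0, limma-voom (limma 3.58.1), transcript length offsets, leaving out libraries, and the authors' table with limma on log2(value + 1). Protein sequences were not used here.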

Additional observations from a re-analysis of the deposited data

How the results depend on the processing

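No member was called in any alternative run. Over all genes, edgeR called 0 higher and 0 lower. DESeq2 called 127 higher and 292 lower, limma-voom 1 and 1, edgeR without WT 1 and KO 2 (the libraries rich in erythroid markers) 1 and 1, and limma 2 and 1 in the authors' table. Without a filter on low counts edgeR called 1 lower. Leaving out single libraries gave 0 to 87 higher and 0 to 275 lower, the highest counts without KO 1. The median log2 fold change was -0.165 to -0.005 for synthetases and -0.123 to -0.025 for factors with single libraries left out, and their difference -0.042 to 0.045. The difference was above 0 without WT 3 or KO 3. Without WT 1 and KO 2 the medians were -0.194 and -0.168. Sars turned to -0.003 there, the only sign change among the 15 members given in every library, under the alternatives run. Eif2ak3, added after seeing the data, kept its log2 fold change under DESeq2 (0.559) but passed the threshold (adjusted p = 0.0156). The cause was not tested. No paired analysis was possible because replicate numbers follow accession order and pair no libraries. With 3 libraries a group, precision differs between members, with intervals from -0.139 to 0.267 for Eif3a and from -0.642 to 0.211 for Mars.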
